A study of Mus musculus with 4 samples.

Results

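The 9 genes described here encode the disulfide-forming machinery of the endoplasmic reticulum (ER): the thiol oxidases Ero1lb and Ero1l, the protein disulfide isomerases P4hb, Pdia3, Pdia4 and Pdia6, the thioredoxin-domain proteins Txndc5 and Txndc11, and the peroxiredoxin Prdx4. They were chosen by name, and all 9 symbols were found among the 32285 genes of the deposited count matrix. The series is a single-cell RNA-seq study of pancreatic islets, which its title places in NOD mice, a strain that develops autoimmune diabetes. Its 4 samples, from mice 5 weeks old, are 2 labelled Xbp1{beta}-/- (Xbp1 deleted in beta cells) and 2 labelled Xbp1fl/fl (the floxed allele). Mice of both genotypes received tamoxifen by intraperitoneal injection, which activates the Cre recombinase that deletes the floxed allele. The sources used here name neither the promoter that drives the Cre nor whether each sample is 1 animal. Islets were hand-picked, cultured overnight, dissociated with accutase and processed with 10x Genomics kits, which tag each captured RNA molecule with a unique molecular identifier (UMI).

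Secreted and membrane proteins acquire their disulfide bonds in the ER. Ero1 oxidases pass electrons from protein disulfide isomerases to oxygen and release hydrogen peroxide, the isomerases form and rearrange the bonds in client proteins, and Prdx4 uses the peroxide and so returns oxidising equivalents to the isomerases. Proinsulin cannot fold without its disulfide bonds, and Ero1lb is known as the oxidase enriched in the pancreas. Plasma cells assemble antibodies, whose chains are held together by disulfides, and expand the same machinery. Xbp1, spliced by the ER stress sensor IRE1, encodes a transcriptional activator in the unfolded protein response, and several ER folding genes are among its known targets.

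RefSeq windows of 250 bases upstream of each annotated start were available for all 9 genes (12 windows, since Txndc5 and Txndc11 have more than 1 start; build GRCm38.p6). RefSeq names Ero1lb as Ero1b and Ero1l as Ero1a. The windows were searched on both strands for motifs of the unfolded protein response: the ER stress response element (ERSE) and its variant ERSE-II, each searched with the letters of its usual consensus, the elements TGACGTGG and TGACGTGA, and the composite site TTGCATCA. TGACGTGG contains ACGTG and, on the other strand, CCACG. The promoters of Ero1lb and Pdia6 held the ER stress response element, those of Txndc5 and Txndc11 held TGACGTGG, and the other 3 motifs were found in none of the 12 windows. The stretches are shown because they hold these matches. Capitals mark the matched letters, and each stretch reads 5′ to 3′ on the strand of its gene.
Ero1lb, chr13:12565633-12565873, plus strand: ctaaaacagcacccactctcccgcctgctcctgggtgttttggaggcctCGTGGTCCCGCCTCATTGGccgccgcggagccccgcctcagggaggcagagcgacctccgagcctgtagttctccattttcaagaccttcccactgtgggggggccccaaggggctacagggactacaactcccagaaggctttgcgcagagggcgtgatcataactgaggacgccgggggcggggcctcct
Pdia6, chr12:17266339-17266544, plus strand: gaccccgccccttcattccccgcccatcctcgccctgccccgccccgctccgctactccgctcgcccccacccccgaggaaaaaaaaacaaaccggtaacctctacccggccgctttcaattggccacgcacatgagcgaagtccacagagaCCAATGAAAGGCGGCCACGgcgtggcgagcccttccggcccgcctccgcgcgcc
Txndc5, chr13:38528034-38528063, minus strand: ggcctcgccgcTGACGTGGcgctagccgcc
Txndc11, chr16:11134616-11134645, minus strand: tgaagtgtggcTGACGTGGagagtccgggt
In Ero1lb the element lay in reverse orientation and began 201 bases before the start, and in Pdia6 it lay forward and began 98 bases before the start. The matches in Txndc5 and Txndc11 began 138 and 102 bases before a RefSeq start and fell in exons of the GENCODE annotation, so only 30 bases are shown. Among all 32851 mouse windows of the same length, 0.113% held the ER stress response element and 0.563% held TGACGTGG. For TGACGTGA, TTGCATCA and ERSE-II the shares were 0.350%, 0.791% and 0.0304%. The short cores CCACG and ACGTG occurred in 28.3% and 16.6% of windows and so mark nothing by themselves. These matches describe letters in a window and no binding was measured.

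In GRCm38 (GENCODE M21), the oxidase genes lie at chr13:12565874-12611396 (Ero1lb, plus strand) and chr14:45283087-45318771 (Ero1l, minus). The isomerase genes lie at chr11:120560298-120573253 (P4hb, minus), chr2:121413775-121438687 (Pdia3, plus), chr6:47796141-47813430 (Pdia4, minus) and chr12:17266545-17284770 (Pdia6, plus). Txndc5 spans chr13:38500079-38528824, Txndc11 chr16:11074911-11134650 and Prdx4 chrX:155323918-155340754, all on the minus strand. Genes on the opposite strand overlap Pdia3 (Catsper2), Pdia6 (Atp6v1c2), Txndc5 (Bmp6, among others) and Txndc11 (Snn). The sources used here do not say whether counting used strand, and without strand reads of such partners cannot be told apart.

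The matrix pools 4 libraries, marked by the numbers 1 to 4 at the end of each barcode. No label ties a library to a sample, so no genotypes were compared, no p-value is given, no library was put in a genotype group, and the library numbers carry no order. They held 4008 to 7490 barcodes and 82963911 to 178396311 UMIs each, and 16146 cells were kept, each with 500 or more genes and no more than 20% of its UMIs from mitochondrial genes. That filter removed 29.7% of barcodes in library 2 and 12.0% to 13.8% in the others. Only 45 barcodes occurred in 2 libraries. Library 1 carried acinar marker transcripts in classes that should lack them: their summed level was 4628 CPM (counts scaled to a common total, defined below) in its beta cells high in Spp1 and 3055 CPM in its delta cells, but 37.4 and 39.1 CPM in the median cell of each.

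Cells were classed by hormone share of their UMIs: beta cells by Ins2 at 5% or more, alpha cells by Gcg at 5% or more and delta cells by Sst at 3% or more. Plasma cells had 20 or more UMIs of Jchain, the antibody joining chain. Beta cells were divided at 0.5% of UMIs from Spp1, the gene of the secreted phosphoprotein osteopontin. Libraries 1 to 4 gave 234, 3209, 356 and 2002 beta cells low in Spp1 and 355, 131, 377 and 219 beta cells high in Spp1. They gave 251, 769, 298 and 727 alpha cells and 220, 426, 332 and 403 delta cells. Plasma cells numbered 72 in library 1, 27 in library 3, 3 in library 2 and 0 in library 4, so plasma values come from libraries 1 and 3. All 9 beta markers, all 7 alpha markers and all 7 plasma markers were at 20 CPM or more in their own class in every library described, and 5 of 6 delta markers were in delta cells, where the other was at 0. The classes are ranges of a continuous measure: between 17 and 82 beta cells per library had Spp1 within 0.4% to 0.6% of UMIs, and 6 to 16 had Ins2 within 5% to 6%. The 636 cells (3.94%) that met more than 1 rule were set apart, no doublet caller was run, and other doublets remain.

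Levels are CPM of UMIs summed over the cells of a class in 1 library, with exact Poisson intervals (95%) that cover counting error only. Hormone transcripts took 45.0% to 57.8% of UMIs in beta cells low in Spp1 but 26.5% to 30.4% in alpha cells, and immunoglobulin transcripts took 24.1% and 40.4% in plasma cells of libraries 1 and 3. The 7 hormone genes and 393 immunoglobulin genes were therefore left out of the total, and several results are also given with all UMIs in the total. UMI counts carry no length correction, so a gene's level is compared between classes and not with that of another gene.

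**Figure D1:**
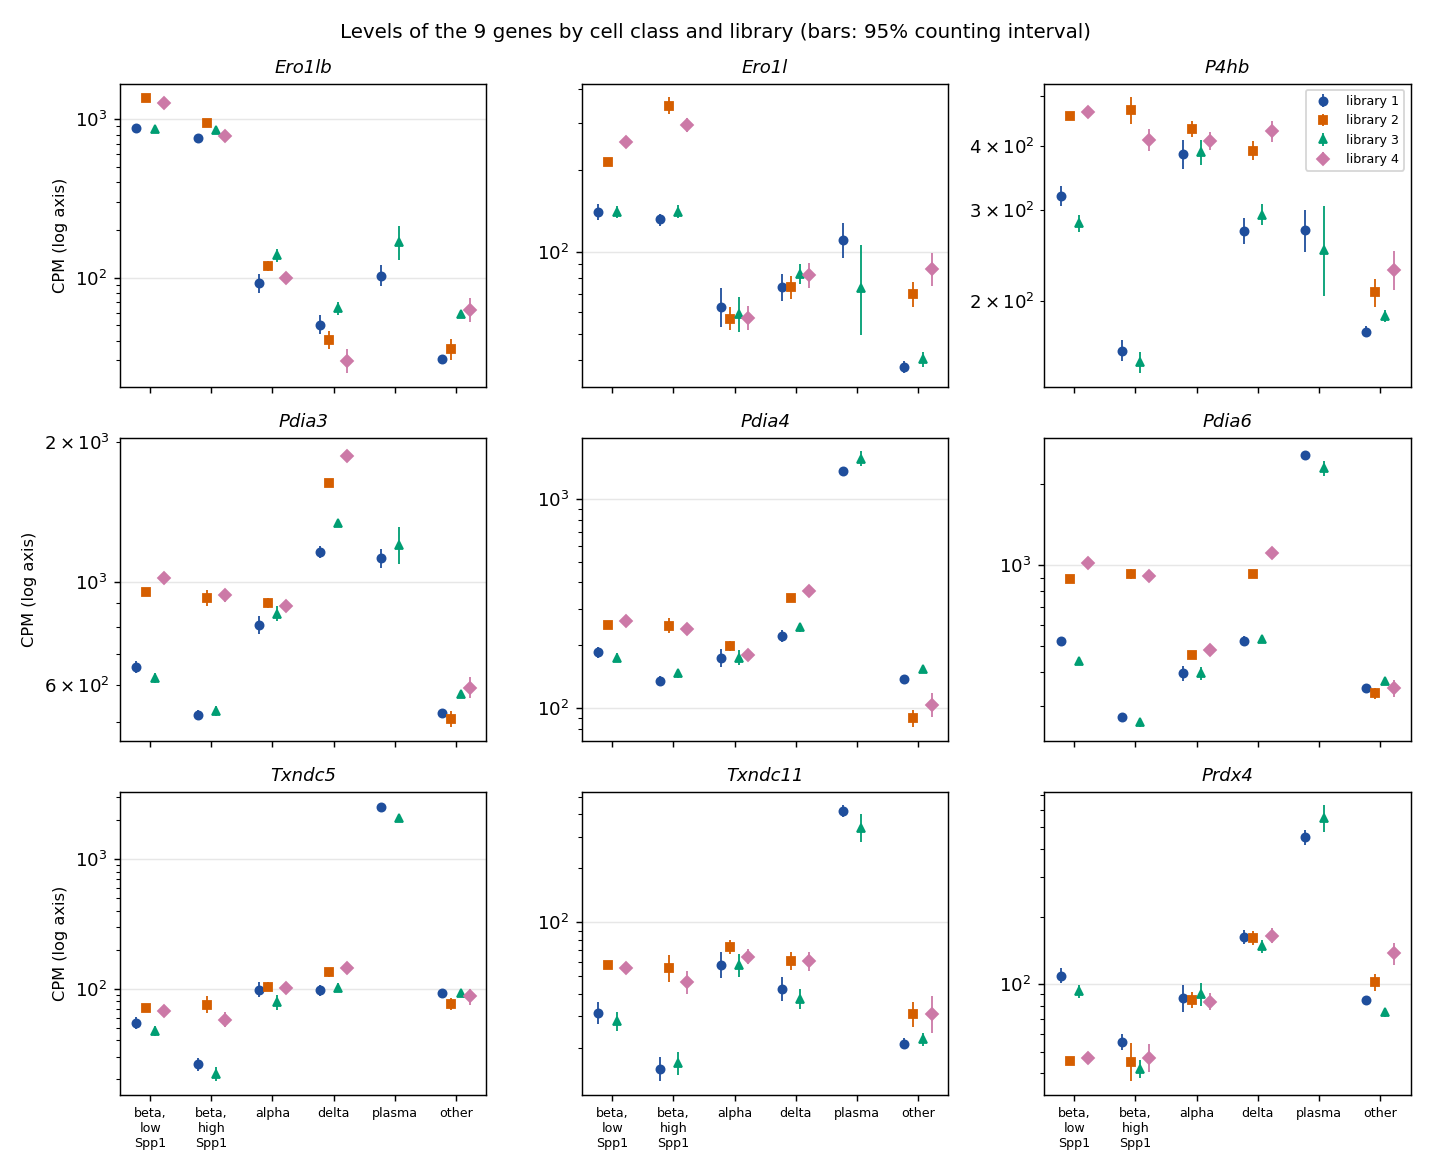
CPM (log axis, a different range in each panel) of each of the 9 genes in 6 cell classes, 1 point per library with its 95% counting interval. Ero1lb lies highest in both beta classes, Pdia4, Pdia6, Txndc5, Txndc11 and Prdx4 lie highest in plasma cells (libraries 1 and 3 only), and Pdia3 lies highest in delta cells.

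Ero1lb, the oxidase known from the pancreas, set beta cells apart from every other class. In beta cells low in Spp1 it stood at 874, 1363, 866 and 1268 CPM in libraries 1 to 4, and in beta cells high in Spp1 at 757, 943, 854 and 787 CPM. Alpha cells had 91.8, 118, 138 and 100.1 CPM and delta cells 50.5, 40.5, 63.8 and 29.9 CPM. The lowest beta value was above the highest alpha value, and the lowest alpha value was above the highest delta value. Plasma cells, at 103 and 167 CPM, overlapped alpha cells.

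Against alpha cells of the same library, Ero1lb in beta cells low in Spp1 was higher by a median of 3.27 on the log2 scale (a pseudocount of 10 CPM was added to both levels), with 3.12, 3.42, 2.56 and 3.54 in libraries 1 to 4. Against delta cells the median was 4.32, from 3.57 to 5.00. Beta cells high in Spp1 were 2.87 above alpha cells, and Ero1lb was the only one of the 9 genes past 2-fold in all 4 libraries there, where 2.18% of genes were higher and 2.17% lower. On the total of all UMIs the medians became 2.63 and 3.59 against alpha and delta cells, still past 2-fold in every library.

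Free RNA of lysed beta cells can put Ero1lb UMIs into other droplets. If all Ins2 UMIs of a class had come with beta-cell RNA in the ratio measured in beta cells of the same library, alpha cells would hold 4.14, 29.1, 11.1 and 14.3 CPM of Ero1lb, well under their measured levels. Delta cells would hold 12.3, 23.6, 12.2 and 12.7 CPM, or 19.2% to 58.1% of what was measured. Endothelial-like cells, which were not selected on any hormone, had 5.34, 25.7, 27.5 and 18.4 CPM, of which carry-over at that ratio would give 1.71, 20.3, 3.77 and 11.1 CPM. The ratio of Ero1lb to Ins2 in free RNA was not measured, and the part of carry-over in the level of any class was not tested.

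B-like cells had 86.3 and 72.0 CPM of Ero1lb in libraries 1 and 3, where carry-over at that ratio would give 2.64 and 3.50 CPM. In fibroblast-like cells Ero1lb was low, at 7.04 to 7.76 CPM. Cells were given such a "-like" name when they had at least 3 markers of the type and more than of any other.

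After each cell was thinned to 3000 UMIs outside hormone and immunoglobulin genes, 81.1%, 79.5% and 92.3% of beta cells low in Spp1 had a UMI of Ero1lb in libraries 1, 3 and 4, and the share in library 2 had an interval of 94.2% to 95.8%. The shares without thinning were 96.6%, 97.3%, 93.5% and 98.8% in libraries 1 to 4. Thinned alpha cells reached 23.7% to 32.1%, thinned delta cells 7.42% to 11.5%, and thinned endothelial-like cells 1.59% to 10.4%. Delta and endothelial-like shares overlapped, while every alpha share was above both.

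Ero1l, the oxidase found in most tissues and known to be induced by hypoxia, was also higher in beta cells, by a smaller factor. Its levels were 140.4, 215, 140.0 and 255 CPM in beta cells low in Spp1 and 132, 347, 141 and 294 CPM in those high in Spp1. Alpha cells had 56.8 to 62.6 CPM, delta cells 74.1 to 82.8 CPM, and plasma cells 110.4 and 73.6 CPM. All beta values were above all alpha, delta and plasma values, and libraries 2 and 4 had the higher beta values. The median log2 ratio of beta cells low in Spp1 was 1.44 against alpha cells (1.05 to 1.98) and 1.13 against delta cells (0.69 to 1.53), the latter below 2-fold in libraries 1 and 3.

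As a share of the UMIs of both oxidase genes, Ero1lb gave 86.2%, 86.4%, 86.1% and 83.3% in beta cells low in Spp1, with exact 95% binomial intervals no wider than 85.3% to 87.0% in library 1. In beta cells high in Spp1 the shares were 85.2%, 73.1%, 85.8% and 72.8%: those of libraries 2 and 4 fell below all values of the cells low in Spp1. Alpha cells lay at 59.5% to 70.1%, delta cells at 26.7% to 43.5%, endothelial-like cells at 8.89% to 32.5% and fibroblast-like cells at 11.7% and 13.4%. The beta, alpha and delta ranges did not overlap. B-like cells, at 85.7% and 80.1%, reached the beta range at far lower levels of both genes, with Ero1l at 14.4 to 17.9 CPM.

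By the call used here (at least 2-fold, in the same direction, in all 4 libraries), 2 of the 9 genes, Ero1lb and Ero1l, were higher in beta cells low in Spp1 than in alpha cells, and 0 were lower. Of the 12832 genes tested, those with at least 10 UMIs in either class in every library, 2.39% were higher and 1.74% lower by the same call. All 9 genes met that minimum. The median of the 9 log2 ratios was -0.09, against -0.01 over all genes; 3 genes were higher and 2 lower than in alpha cells in every library. With all UMIs in the total only Ero1lb was called, where 0.974% of genes were higher and 2.68% lower, and Ero1l had a median of 0.90. The median of the 9 was then -0.67, against -0.27 over all genes, with 2 genes higher and 6 lower in every library. The share of all genes higher or lower in every library was not computed on either total. With all UMIs the median over all genes was itself negative in every library, at -0.22, -0.34, -0.14 and -0.35.

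Against delta cells, Ero1lb alone was called higher and 0 genes lower, where 1.57% and 1.65% of 12980 genes were. The median of the 9 ratios was -0.21, against 0.02 over all genes. With all UMIs in the total, Pdia3 (-1.53) and Txndc5 (-1.33) were also called lower in beta cells, where 2.60% of genes were lower and 0.647% higher. On that total the median of the 9 was -0.76, against -0.29 over all genes, and 7 of the 9 were lower in every library. Here too the share of all genes lower in every library was not computed. The median over all genes was itself negative, at -0.27, -0.35, -0.21 and -0.33 in libraries 1 to 4.

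**Figure D2:**
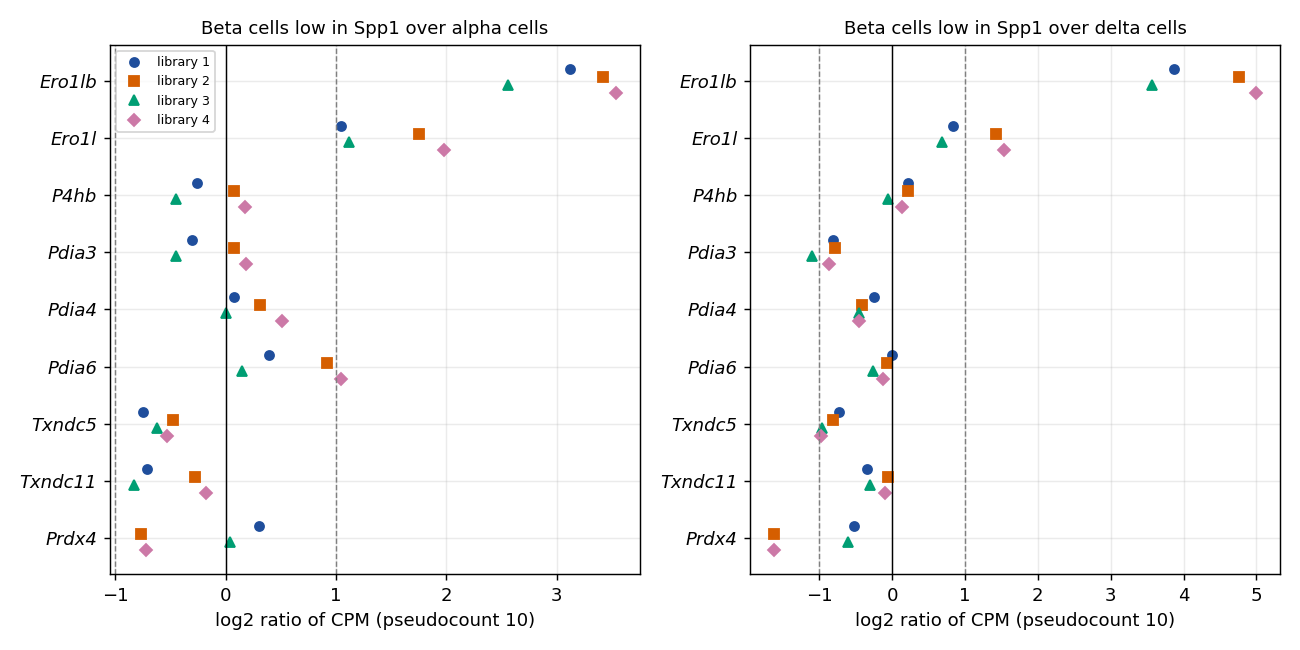
Log2 ratio of CPM (pseudocount 10) of beta cells low in Spp1 over alpha cells (left) and over delta cells (right) of the same library, for the 9 genes, 1 symbol per library. Dashed lines mark 2-fold. Ero1lb lies past 2-fold in all 4 libraries in both panels, Ero1l only in the left one, and Prdx4 differs between libraries by over 1 log2 unit against delta cells.

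Of the isomerases, P4hb is the founding protein disulfide isomerase and also a subunit of collagen prolyl 4-hydroxylase. On the total without hormone and immunoglobulin genes it was at similar levels in the endocrine classes. Beta cells low in Spp1 had 319.6, 456, 283 and 465 CPM, alpha cells 386, 431, 389 and 409 CPM, and delta cells 273, 391, 294 and 426 CPM. The 3 ranges overlapped, and the medians of 388, 399 and 342 CPM did not differ beyond the spread over libraries. With all UMIs in the total, beta cells low in Spp1 had 155 to 202 CPM of P4hb. That was below all alpha values (270.5 to 300.5 CPM) and all delta values (210.1 to 304 CPM). Plasma cells had 274 and 251 CPM, B-like cells 43.0 to 55.2 CPM and dendritic-like cells a median of 48.0 CPM.

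Pdia3, the isomerase that works with calnexin and calreticulin on glycoproteins, was highest in delta cells, at 1162, 1634, 1342 and 1871 CPM. Beta cells low in Spp1 had 656, 951, 622 and 1019 CPM and alpha cells 809, 899.6, 854 and 889.6 CPM. All delta values were above all beta and alpha values, and beta and alpha cells overlapped. On the total of all UMIs they did not: beta cells low in Spp1 had 342 to 442 CPM and alpha cells 594 to 630.0 CPM. Plasma cells, at 1125 and 1199.6 CPM, lay at and just below the low end of the delta range. The log2 ratio of beta to delta cells was -0.81, -0.78, -1.10 and -0.87 in libraries 1 to 4, past 2-fold in library 3 only.

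Pdia4 and Pdia6, which carry several thioredoxin-like domains, were highest in plasma cells. Pdia4 reached 1368 and 1565 CPM there, against 223, 338, 244 and 364 CPM in delta cells, 186, 251, 175 and 261 CPM in beta cells low in Spp1 and 174 to 199.8 CPM in alpha cells. Beta and alpha values overlapped, as did beta and delta values. Within each library Pdia4 was lower in beta than in delta cells, with log2 ratios of -0.25, -0.42, -0.46 and -0.46. With all UMIs in the total, Pdia4 was at 96.3 to 113 CPM in beta cells low in Spp1 and 122 to 139 CPM in alpha cells, without overlap. Pdia6 reached 2569.8 and 2290.2 CPM in plasma cells. In delta cells it was at 525, 929.7, 534 and 1114 CPM and in beta cells low in Spp1 at 525, 886, 442 and 1017 CPM, while alpha cells kept to 397 to 485 CPM. Delta and beta cells of the same library differed by at most 0.27 on the log2 scale, and both had higher Pdia6 in libraries 2 and 4 than in 1 and 3. On the total of all UMIs the log2 ratios of Pdia6 in beta to delta cells were -0.53, -0.81, -0.70 and -0.84.

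Txndc5, a 3-domain isomerase known for its abundance in plasma cells, was also highest there. Plasma cells had 2507 and 2069.5 CPM, fibroblast-like cells 181 to 184 CPM, delta cells 97.5 to 144 CPM, alpha cells 78.5 to 104 CPM and beta cells low in Spp1 47.4 to 71.7 CPM. Plasma, fibroblast-like and beta values did not overlap with those of any other of these 5 classes, and alpha and delta values overlapped. After thinning, 97.1% and 80.8% of plasma cells in libraries 1 and 3 had a UMI of Txndc5, against 16.6% and 9.15% of beta cells low in Spp1 there (without thinning, all 72 plasma cells of library 1 and 92.6% of those of library 3, against 58.5% and 55.6%).

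Txndc11, a membrane-bound thioredoxin-domain protein that associates with the EDEM proteins of ER-associated degradation, had 415 and 337 CPM in plasma cells. Alpha cells had 58.0 to 72.9 CPM, delta cells 37.4 to 61.0 CPM and beta cells low in Spp1 28.2 to 58.2 CPM, which overlapped one another. Within each library beta cells were lower than alpha cells, with log2 ratios of -0.71, -0.28, -0.83 and -0.18. On the total of all UMIs, beta cells low in Spp1 had 15.5 to 24.6 CPM, below all alpha and delta values. T-like cells were at 7.19 to 10.3 CPM, dendritic-like cells at 7.16 to 11.8 CPM.

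Prdx4, the ER peroxiredoxin, had 451 and 548 CPM in plasma cells and 234 and 283 CPM in cells with pancreatic polypeptide (Ppy at 3% of UMIs or more; libraries 2 and 4). Delta cells had 162, 160.5, 148 and 164 CPM and alpha cells 86.8, 84.7, 90.3 and 83.4 CPM. In beta cells low in Spp1 it was at 109, 45.5, 93.0 and 46.6 CPM. Libraries 1 and 3 were thus above, or at, the alpha level and libraries 2 and 4 below it. The log2 ratio to alpha cells was 0.30, -0.77, 0.04 and -0.72 and changed sign between libraries. With all UMIs in the total it was -0.13, -1.24, -0.25 and -1.19, negative in every library.

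**Figure D3:**
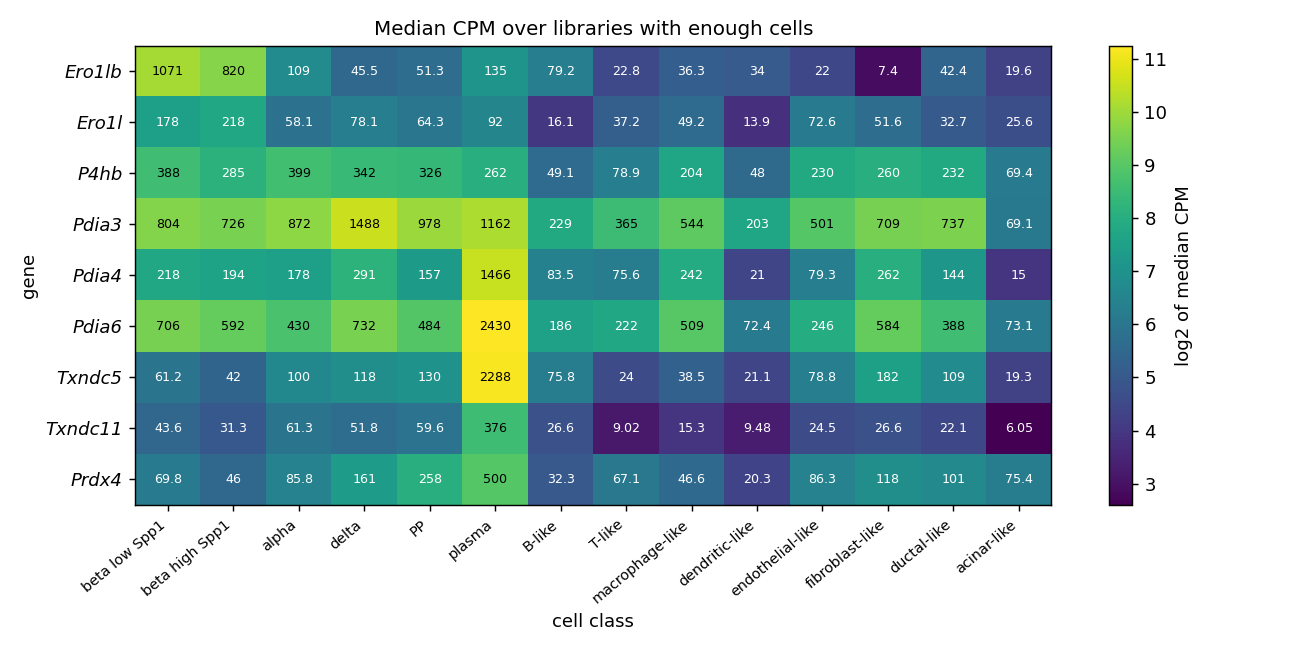
Median CPM of each gene (rows) in 14 cell classes (columns) over the libraries with enough cells of the class, with colour on a log2 scale. The row of Ero1lb is brightest in the beta columns (1071 and 820.5 CPM), and the rows of Pdia4, Pdia6, Txndc5, Txndc11 and Prdx4 in the plasma column. Dendritic-like and acinar-like columns are dark in most rows, with Pdia3 at 203 CPM in the former and Prdx4 at 75.4 CPM in the latter.

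Summed over the 9 genes, plasma cells gave 8923 and 8501 CPM, or 0.892% and 0.850% of their UMIs outside hormone and immunoglobulin genes. Beta cells low in Spp1 gave 2896, 4298, 2696 and 4455 CPM, delta cells 2609, 3763, 2848 and 4256 CPM, and alpha cells 2164, 2432, 2239 and 2371 CPM. The sums of beta cells low in Spp1 and of delta cells overlapped, and all were above the alpha sums. Beta cells high in Spp1 gave 2071, 4034, 2162 and 3730.3 CPM, below the alpha sum of the same library in libraries 1 and 3. B-like cells gave 729.6 and 825 CPM, dendritic-like cells 424 and 463 CPM and acinar-like cells, present in number only in library 1, 373 CPM. With all UMIs in the total, the sums of beta cells low in Spp1 fell to 1482 to 1931 CPM and those of plasma cells to 6769 and 4859.6 CPM, and the delta sums of 2006 to 3039.6 CPM then lay above all the beta sums. The beta sums then overlapped the alpha sums, which were 1557 to 1694 CPM.

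At 3000 UMIs per cell, the median cell had a UMI of 7 and 6 of the 9 genes among plasma cells of libraries 1 and 3, and of 4 among alpha and delta cells in every library. Among beta cells low in Spp1 the median was 4, 5, 4 and 5 genes in libraries 1 to 4, and among those high in Spp1 it was 3, 5, 3 and 5.

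Plasma cells were then set against B-like cells, of the lineage they arise from, in libraries 1 and 3 (72 and 27 plasma cells, 666 and 503 B-like cells). Of the 9 genes, 8 were at least 2-fold higher in plasma cells in both libraries, all but Ero1lb, where 6.04% of 9768 genes tested were higher and 4.70% lower. The median log2 ratio of the 9 was 3.39, against -0.09 over all genes. Txndc5 rose most, by 4.52 and 5.07 on the log2 scale in libraries 1 and 3, followed by Pdia4 (4.14 and 3.85), Pdia6 (3.98 and 3.33), Prdx4 (3.42 and 3.75) and Txndc11 (3.60 and 3.19). Pdia3, P4hb and Ero1l rose by medians of 2.30, 2.21 and 1.94. Ero1lb differed by 0.23 and 1.11. With all UMIs in the total, 7 genes were called, without Ero1l, where 3.02% of all genes were.

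Because the Jchain rule counts molecules, it takes deep cells: plasma cells had medians of 26379 and 24341 UMIs, B-like cells 4185 and 4723. The plasma cells of library 3 also carried markers of other types: 34129.8 CPM summed over the 2 markers of pancreatic polypeptide cells, 319.6 CPM over 6 endothelial markers, all 6 at 20 CPM or more, and 2516 CPM over 9 beta markers, with 5 of 6 T-cell markers at 20 CPM or more. In library 1 the sums were 23.7, 15.2 and 427 CPM, with 0 of the endothelial and 0 of the T-cell markers at that level. The parts of the depth gap and of these markers in the ratios were not tested. Against all cells outside the hormone and plasma classes, 7 of the 9 genes were higher (all but Ero1l and P4hb), where 3.23% of 15621 genes were, and 5 were with all UMIs in the total (1.57% of genes).

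The wider machinery moved in plasma cells to different degrees. Of 29 other genes of ER thiol redox, 22 were tested against B-like cells, 6 were higher and 1 (Txndc16, by -1.86) lower, with a median log2 ratio of 0.60; over all genes the shares were the 6.04% and 4.70% given above. Creld2, an ER-resident protein with isomerase activity, was highest by ratio (4.73), followed by the selenoproteins Selenos (2.77), Selenom (2.61) and Selenok (2.56). Of 10 binding partners of the 9 genes, 8 were tested and 5 were higher: Edem1 (4.49), Edem2 (3.85) and Edem3 (1.91), which deliver misfolded glycoproteins to degradation, and Calr (2.74) were the 4 with the largest ratios. Of 16 reference genes of the unfolded protein response, 14 were higher, led by Xbp1 (4.65), the chaperone Hsp90b1 (4.27), Sdf2l1 (3.84) and Manf (3.63). Xbp1 itself stood at 1212 and 1192 CPM in plasma cells and at 34.9 and 41.9 CPM in B-like cells. On the total of all UMIs, 5 genes of thiol redox, 4 partners and 13 reference genes were higher and Txndc16 was lower, where 3.02% of all genes were higher and 9.93% lower.

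In beta cells low in Spp1, against alpha cells, 0 of 24 ER thiol redox genes tested were called, with a median log2 ratio of 0.39, where 2.39% of all genes were higher and 1.74% lower. Of 9 partners tested, only Edem1 was called (1.79, from 14.3 to 18.0 CPM in alpha cells to 70.2 to 89.5 CPM in beta cells). Of the 16 reference genes, 3 were higher: Ddit3, the stress transcription factor CHOP (2.05), Sdf2l1 (1.68) and Herpud1 (1.62), a component of ER-associated degradation. When all UMIs were in the total, Edem1 (1.19) and Ddit3 (1.45) were the genes of the 3 lists called against alpha cells. Against delta cells 0 genes of the 3 lists were called, and on all UMIs 1 was, the thioredoxin-domain protein Erp44, which was lower in beta cells (-1.25), where 2.60% of all genes were lower.

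The levels in beta cells differed between libraries more than those in alpha cells, and those in delta cells, given below, differed as well. Among beta cells low in Spp1, the highest library was at least 2-fold over the lowest for 2 of the 9 genes, Pdia6 (2.27-fold) and Prdx4 (2.15-fold), where this held for 3.28% of all genes and for 6.96% of genes at 100 CPM or more. The median range of the 9 was 0.70 on the log2 scale, against 0.22 over all genes and 0.31 at 100 CPM or more. On the total of all UMIs 1 gene, Prdx4 (2.31-fold), spanned 2-fold, where 2.22% of all genes did, and the median range of the 9 was 0.36, against 0.23 over all genes and 0.44 at 100 CPM or more. On the total without hormone and immunoglobulin genes, 8 of the 9 were lowest in library 3 and Prdx4 was lowest in library 2. Xbp1 was at 128, 227, 109 and 222 CPM in these cells. Its UMIs may come from outside the deleted part of the transcript, and no library is tied to a genotype, so this level checks neither the deletion nor a label.

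Among beta cells high in Spp1, 5 of the 9 genes spanned at least 2-fold: P4hb (160.2, 468, 152 and 410.4 CPM), Pdia6 (273, 926, 261 and 911 CPM), Txndc5 (26.3, 75.6, 22.2 and 57.8 CPM), Txndc11 (15.3, 55.6, 16.4 and 46.3 CPM) and Ero1l. The share over all genes was 6.14%, and 14.6% at 100 CPM or more. All 5 were lower in libraries 1 and 3 than in libraries 2 and 4. Xbp1 in the same cells was at 56.4, 209, 46.3 and 212 CPM, and 9 of the 16 reference genes spanned 2-fold, among them Dnajb9 (93.7, 509, 112 and 531 CPM) and Hyou1 (65.9, 321, 75.8 and 297 CPM), chaperones of the ER lumen. When all UMIs were in the total, 2 of the 9 genes, P4hb (2.03-fold) and Pdia6 (2.41-fold), and 4 of the 16 reference genes (Xbp1, Dnajb9, Sdf2l1 and Hyou1) spanned 2-fold, where 6.91% of all genes did. Ero1lb and Prdx4, on the total without hormone genes, did not follow this order, with ranges of 0.31 and 0.34 on the log2 scale.

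In alpha cells 0 of the 9 genes and 0 of the 16 reference genes spanned 2-fold over the libraries (2.29% of all genes did), and the median range of the 9 was 0.19, against 0.24 over all genes. In delta cells Pdia6 alone did (2.10-fold, where 2.68% of all genes did). The median range of the 9 was 0.62 there, against 0.25 over all genes. On all UMIs it was 0.51, against 0.24 over all genes and above the 0.36 of the 9 in beta cells low in Spp1. The range of Pdia6 was then 1.96-fold and 0 of the 9 genes spanned 2-fold, where 2.27% of all genes did. The higher delta values of P4hb, Pdia3, Pdia4, Pdia6, Txndc5 and Txndc11 were all in libraries 2 and 4. The delta class of library 1 is the one that carried acinar transcripts, and the part of these in its values was not tested.

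Within beta cells, the split at Spp1 had unequal parts: 60.3%, 3.92%, 51.4% and 9.86% of beta cells were high in Spp1 in libraries 1 to 4. Of the 9 genes, 0 were called in either direction between the cells high and low in Spp1, where 0.0303% and 0.0227% of 13213 genes were higher and lower; with all UMIs in the total the counts were again 0, where 0.0303% and 0.00757% were. The median log2 ratio of the 9 was nevertheless -0.38, against -0.03 over all genes, and was -0.71, -0.01, -0.53 and -0.16 in libraries 1 to 4. In libraries 1 and 3 the ratios of P4hb (-0.95 and -0.85), Pdia6 (-0.92 and -0.74), Txndc5 (-0.84 and -0.83), Txndc11 (-0.71 and -0.53) and Prdx4 (-0.87 and -0.99) approached but did not reach 2-fold with the pseudocount of 10 CPM. In libraries 2 and 4 the same 5 genes lay between -0.23 and 0.07. Without the pseudocount some levels were past 2-fold apart. These were Txndc5 (26.3 against 54.7 CPM in library 1, 22.2 against 47.4 CPM in library 3), Txndc11 in library 1 (15.3 against 31.4 CPM) and Prdx4 in library 3 (41.7 against 93.0 CPM).

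The oxidases followed another order. Ero1lb in cells high against low in Spp1 was at -0.20, -0.53, -0.02 and -0.68 in libraries 1 to 4, the larger differences in libraries 2 and 4. Ero1l was at -0.09, 0.67, 0.01 and 0.20. Counting intervals of the 2 classes were apart, with the low-Spp1 class higher, for 8 of the 9 genes in library 1, 1 in library 2, 7 in library 3 and 4 in library 4. They were apart the other way for 1 gene in library 2 and 1 in library 4. The share of all genes with intervals apart was not computed, so these counts are not read as a trait of the 9 genes. The Ero1lb difference in libraries 1 and 3 depended on the insulin share of the cells compared. With Ins2 at 5% to 20% of UMIs, Ero1lb was at 979 CPM in cells low and 762 CPM in cells high in Spp1 in library 1. In library 3 it was at 1137 and 864 CPM. With Ins2 at 20% to 40% the values were 794 and 741 CPM and 697 and 824 CPM.

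Cells high in Spp1 also had less insulin in libraries 1 and 3, with hormone shares of 35.0% and 36.6% of UMIs against 47.3% and 45.0% in cells low in Spp1. In libraries 2 and 4 the shares were 55.9% and 54.8% against 57.8% and 56.7%. Beta cells with Ins2 at 20% to 40% of UMIs were therefore compared, a choice made after seeing the data. P4hb was then at 418 CPM in cells low in Spp1 and 170.4 CPM in cells high in Spp1 in library 1, and at 321 and 134 CPM in library 3. In libraries 2 and 4 it was at 481 and 481 CPM and at 495 and 432 CPM. Without that limit on Ins2, P4hb was at 319.6 CPM in cells low and 160.2 CPM in cells high in Spp1 in library 1, and at 283 and 152 CPM in library 3. At Ins2 of 5% to 20%, P4hb was at 187 CPM in cells low and 158 CPM in cells high in Spp1 in library 1. In library 3 it was at 220.0 and 156 CPM. That range held 277 and 271 of the cells high in Spp1 in libraries 1 and 3, against 77 and 105 at 20% to 40%. The P4hb difference was thus smaller where most cells high in Spp1 lay. Libraries 2 and 4 had fewer than 50 such cells there. Insulin share can still differ between the classes within each range, and its part in the difference was not tested.

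Pdia6 gave 653 and 301 CPM in library 1 and 498 and 275 CPM in library 3, but 884 and 915 CPM in library 2 and 1037 and 939 CPM in library 4. Prdx4 was at 141 and 74.3 CPM in library 1 and at 111 and 46.3 CPM in library 3, and at 42.8 to 47.4 CPM in both classes of libraries 2 and 4. Xbp1 had the same order, at 178 and 79.4 CPM in library 1 and 129.5 and 40.6 CPM in library 3, with 211 to 231 CPM in libraries 2 and 4. At Ins2 of 5% to 20% the 2 classes lay closer. Pdia6 was there at 337 and 268 CPM in library 1 and 352 and 254 CPM in library 3. Prdx4 was at 67.1 and 51.2 CPM and at 54.4 and 40.1 CPM, and Xbp1 at 56.8 and 50.9 CPM and at 71.1 and 47.6 CPM. Ductal cells are well known for Spp1. The summed level of their markers in the median cell was 1095 CPM in cells high and 1077 CPM in cells low in Spp1 in library 1, and 991 and 1076 CPM in library 3. Median delta cells of these libraries had 1017 and 897 CPM, so this sum does not mark ductal RNA by itself. In both libraries 3 of the 6 ductal markers were at 20 CPM or more in cells high in Spp1, and 2 in cells low in Spp1. Alpha markers differed between the classes: 3654 CPM in cells high and 1769.9 CPM in cells low in Spp1 in library 1, 3436 and 1967 CPM in library 3, but 349 and 578 CPM in library 2 and 299 and 407 CPM in library 4. Delta markers were at 75.3 and 134 CPM in library 1 and 73.0 and 123 CPM in library 3, in cells high and low in Spp1. The part of these transcripts in the differences was not tested.

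**Figure D4:**
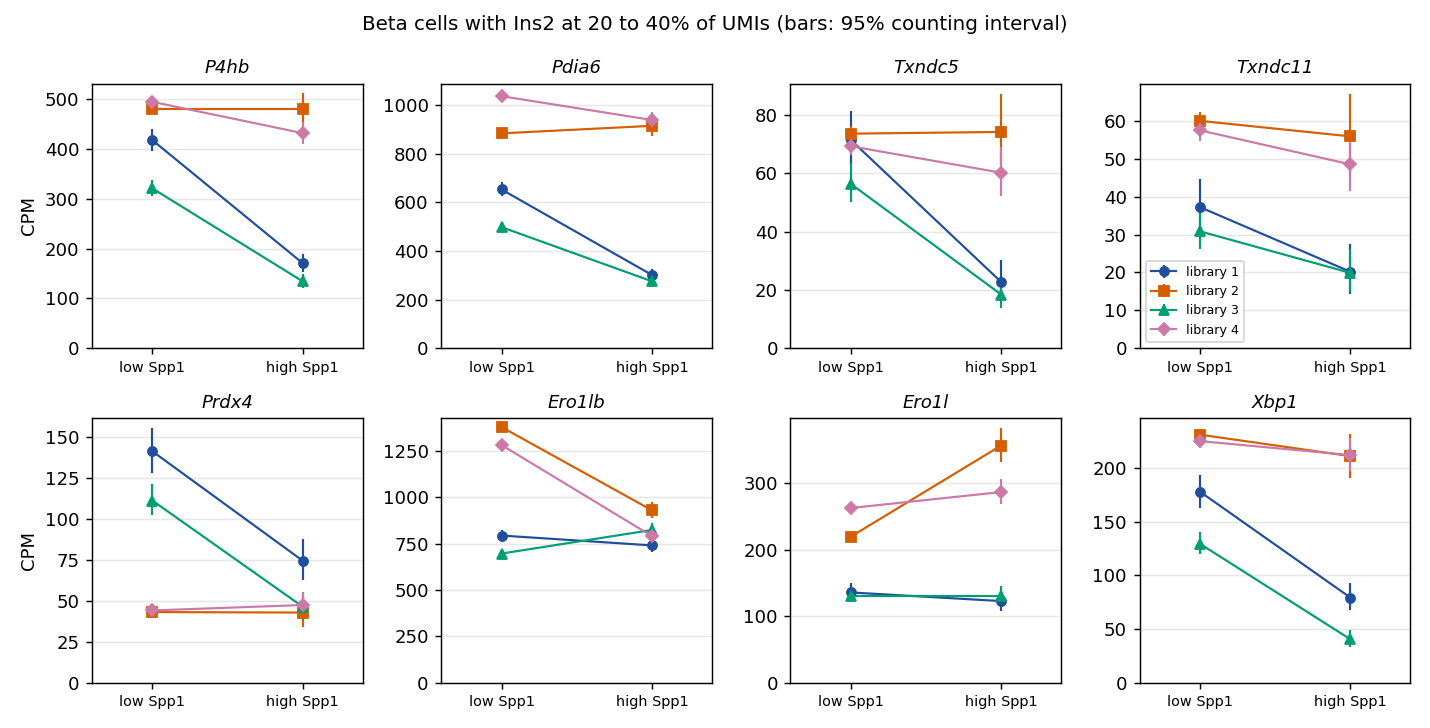
CPM (linear axis from 0) of 7 of the 9 genes and of Xbp1 in beta cells with Ins2 at 20% to 40% of UMIs, low and high in Spp1, with 95% counting intervals; lines join the 2 classes of 1 library. P4hb, Pdia6, Txndc5, Txndc11, Prdx4 and Xbp1 slope down most in libraries 1 and 3. Ero1lb slopes down most in libraries 2 and 4, slightly down in library 1 and up in library 3. At Ins2 of 5% to 20%, not shown, Ero1lb was lower in cells high in Spp1 in both libraries 1 and 3.

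The insulin share had its own relation to the genes among cells low in Spp1. In library 1, cells with Ins2 at 5% to 20% had 187 CPM of P4hb and 56.8 CPM of Xbp1, against 418 and 178 CPM at 20% to 40%. In library 3 the values were 220.0 and 71.1 CPM against 321 and 129.5 CPM. Ero1lb ran the other way, at 979 against 794 CPM in library 1 and 1137 against 697 CPM in library 3. In libraries 2 and 4, P4hb was at 593 and 651 CPM at 5% to 20%, 481 and 495 CPM at 20% to 40% and 347 and 298 CPM over 40%, a decrease with insulin share in both. Cells at 5% to 20% in libraries 2 and 4 had medians of 4026 and 5278 UMIs, with 4.80% and 11.7% of UMIs from mitochondrial genes in the median cell, against 2.01% and 1.85% at 20% to 40%. The chaperone gene Hspa5 was also higher there, at 5847 and 3729.8 CPM against 2158 and 2410.1 CPM. The part of depth and cell quality in these values was not tested.

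Across 38 sums of at least 50 cells (14 classes, up to 4 libraries), the isomerases varied together. Pearson's r of log2(CPM + 10) among P4hb, Pdia3, Pdia4 and Pdia6 ran from 0.71 (P4hb and Pdia4) to 0.96 (Pdia4 and Pdia6). Txndc5 had 0.84 with Txndc11, but 0.48 with P4hb and 0.57 with Pdia3. The spread of r over other pairs of genes was not computed. Ero1lb had 0.72 with Ero1l and between -0.19 and 0.36 with the other 7. The sums share libraries, and sums of 1 class share a cell type, so these values are descriptions over points that are not independent.

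Among 11711 genes at 20 CPM or more in some sum, those most like each of the 9 by this r were as follows. Ero1lb was nearest to Prlr, the prolactin receptor (0.931), and G6pc2, the islet glucose-6-phosphatase (0.930). Ero1l was nearest to Xpot (0.898) and Atp2a2, the ER calcium pump (0.895). P4hb was nearest to the zinc transporter Slc39a7 and, next, Rab1a (0.933), and Pdia3 to Mydgf (0.946) and Rpn2, a subunit of the oligosaccharyltransferase (0.932).

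Pdia4 was nearest to Pdia6 (0.959) and Hsp90b1 (0.949), and Pdia6 to Manf (0.965) and Selenos (0.960). Txndc5 was nearest to Txndc11 (0.836) and Srprb, a subunit of the signal recognition particle receptor (0.794). Txndc11 was nearest to Sec24a, of the COPII coat (0.871), and Ssr1, of the translocon (0.854), and Prdx4 to Txndc5 (0.748) and Kdelr3, a receptor that returns proteins to the ER (0.704). The nearest genes of Prdx4 and Txndc5 were thus less alike than those of the other 7.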

How the data were processed

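The values are whole-number counts of UMIs per gene and barcode, made by the authors with Cell Ranger 6.1.2 per the file headers; per the submitters' processing notes the build is mm10. The annotation and any filter on barcodes before deposit are not given in the sources used here. Of 32285 feature identifiers, 32235 were found in GENCODE M21.

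Cells were kept with at least 500 genes and at most 20% mitochondrial UMIs. Counts of a class within 1 library were added up and scaled to the total without 7 hormone and 393 immunoglobulin genes. Ratios within a library used a pseudocount of 10 CPM, and a call needed 2-fold in the same direction in every library with at least 50 cells of both classes (25 for plasma cells). The ratio step was tested on simulated data. Median cell depth was 13287 to 33052 UMIs, and intervals cover counting error only.

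The rule for "-like" cells was written after the files were seen. The 9 genes, the gene lists and the markers were chosen with earlier results of these data known. Besides the 9 genes, the text names up to 4 genes per list and comparison with the largest median ratio among those called, and the 2 genes most correlated with each of the 9. Txndc16, Erp44, Xbp1, Dnajb9, Hyou1 and the library ranges of reference genes were added after their values were seen. Alternatives covered the cell filter, class cuts, total, pseudocount, count minimum, per-cell means and leaving out each library. Python 3.11.15, numpy 2.4.6, scipy 1.17.1, pandas 2.3.3 and matplotlib 3.10.9 were used.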

Additional observations from a re-analysis of the deposited data

How the results depend on the processing

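Of 954 values recomputed under the alternatives, 781 stayed within the tolerance and 173 moved. A change of direction was counted only for the called ratios: Ero1lb against alpha and delta cells and Ero1l against alpha cells. It occurred in 0 of the 13 alternatives of each. With all UMIs in the total, 1 of the 9 genes was called higher against alpha cells, 2 lower against delta cells and 1 spanned 2-fold over libraries in beta cells low in Spp1; all genes called were then 125 higher and 344 lower against alpha cells, 84 and 338 against delta cells, and 1 lower in cells high against low in Spp1. When CPM was averaged over cells, 1 of the 9 genes was higher against alpha cells and 7 genes in all were higher in cells high in Spp1. A pseudocount of 1 gave 609 higher and 541 lower genes against alpha cells, 438 and 506 against delta cells, and 15 and 10 between the Spp1 classes, while the calls among the 9 stayed. With Spp1 divided at 1%, 2 genes in all were higher in cells high in Spp1, 1 of the 9 genes spanned 2-fold, and the Ero1lb share of oxidase UMIs was 86.1% in library 2 and 82.8% in library 4. With Ins2 at 10%, that share was 85.1% in library 3. With Ins2 at 20% to 40% in both classes, chosen after seeing the data, 1 gene in all was lower in cells high in Spp1.

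Leaving out 1 library at a time gave 4 to 7 genes higher (7 without library 3) and 3 to 5 lower (5 without library 1) between the Spp1 classes, and 1 to 2 of the 9 genes spanning 2-fold in beta cells low in Spp1 (1 without library 1, 3 or 4). The median ratio changed sign under some alternative only for P4hb, Pdia3, Pdia4 and Prdx4 against alpha cells and for P4hb against delta cells, none of them called. No paired analysis was possible because the results come from no test; ratios between classes were taken within each library. The plasma values of library 3 rest on 27 cells, with intervals of 204 to 306 CPM for P4hb and 129 to 213 CPM for Ero1lb.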

Other observations

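The cells that met more than 1 class rule held levels of Ero1lb between those of beta cells and the other hormone classes, at 334 to 579.9 CPM over the 4 libraries, and an Ero1lb share of oxidase UMIs of 77.1%, 82.3%, 81.2% and 78.4% in libraries 1 to 4. Their sums over the 9 genes were 2426, 3518, 2524 and 3737 CPM. These cells numbered 77, 258, 133 and 168, with medians of 50363, 30054, 46084 and 36430.5 UMIs, and doublets among them were not told apart from single cells.

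Cells that met no class rule, had Ppy under 3% of UMIs and got no "-like" name had an Ero1lb level of 239 CPM in library 3. In libraries 1 and 2 it was 58.9 to 105 CPM. These cells had fewer than 3 markers of every type, or types tied for the most markers. Ductal-like cells of libraries 1 and 3 had Ero1lb at 19.7 and 65.0 CPM, where carry-over from beta cells would give 4.21 and 8.06 CPM. In macrophage-like cells Pdia4 ranged from 114 to 265 CPM over 3 libraries.

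The summed levels in beta cells, in delta cells and, by a smaller gap, in alpha cells fell into pairs of libraries. In beta cells high in Spp1, the sum of the 9 genes was 2071 and 2162 CPM in libraries 1 and 3 and 4034 and 3730.3 CPM in libraries 2 and 4; in those low in Spp1 it was 2896 and 2696 CPM and 4298 and 4455 CPM. Delta cells gave 2609 and 2848 CPM in libraries 1 and 3 and 3763 and 4256 CPM in libraries 2 and 4. In alpha cells the sums had the same order but lay closer, at 2164 and 2239 CPM and 2432 and 2371 CPM. On the total of all UMIs, beta cells low in Spp1 gave 1525 and 1482 CPM and 1815 and 1931 CPM. Delta cells then gave 2006 and 2142 CPM and 2695 and 3039.6 CPM. No label says what the libraries of a pair share, and no test between libraries was made.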
